A study of Mus musculus with 9 samples.

Results

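The genes described here are the WNT ligands, their receptors and co-receptors, their antagonists, the central cytoplasmic and nuclear factors of the pathway, and its feedback targets. The rule picks genes by symbol and uses no measured values: every Wnt, Fzd, Dkk, Sfrp, Lgr4 to Lgr6 and Lrp5 or Lrp6 gene together with 19 named partners, protein coding only. The rule gave 61 genes of the 55401 in the count files. Reads were found for 56 of them in at least 1 library, and 45 passed the filter on low counts and were tested. Messenger RNA was sequenced from NP53, a mouse diffuse midline glioma line grown as a monoculture in serum-containing medium, in 9 libraries. The control group, Gcontrol, is NP53 with the genotype given as WT. G1C7 and G2C9 are derivatives of the same line with the genotype given as TIM-3 knockout, where TIM-3 is the immune checkpoint receptor encoded by Havcr2, and the study asks what its loss does to this tumour line. Each group had 3 libraries. The labels do not say whether G1C7 and G2C9 each grew from a single cell, how the gene was edited, or whether libraries came from separate cultures, so the p-values below measure the spread between these libraries, which may be technical.

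WNT proteins are secreted lipid-modified ligands. In the canonical branch they bind a Frizzled receptor together with LRP5 or LRP6, which spares beta-catenin (Ctnnb1) from a destruction complex built on AXIN and APC, and beta-catenin then acts with TCF/LEF factors on target genes such as Axin2. In other branches, ligands such as WNT5A act through Frizzled, ROR or RYK receptors on cell shape and movement. In the developing brain the pathway patterns the dorsal neural tube and steers neural progenitors.

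Libraries held between 50110129 and 56035382 reads in genes, and both mates of a pair were counted. Levels are CPM, each gene's share of the library's scaled read total, and 3 read pairs in a library correspond to between 0.106 and 0.122 CPM. A gene was called higher or lower at a Benjamini-Hochberg adjusted p under 0.05 in an edgeR quasi-likelihood fit over all 9 libraries and 15659 genes. Fold changes are on the log2 scale with SE unless said otherwise. The SE was derived from the test, as the absolute log2 fold change divided by the square root of its F statistic. Havcr2 itself had 58 to 74 reads per control library, 6 to 66 per G1C7 library and 28 to 39 per G2C9 library, and it was called in neither derivative (adjusted p = 0.586 and 0.448). One library of each derivative lay away from its group, replicate 2 in G1C7 and replicate 3 in G2C9: across all tested genes their root mean square log2 differences from their own replicates were 0.932 to 0.944 and 0.762 to 0.770, against 0.416 and 0.438 between the remaining pair and 0.363 to 0.386 within Gcontrol. Of 9 glial and progenitor markers, Olig1 and Olig2 were at 0 reads in all libraries, while Sox10 and Gfap stayed under 1 CPM. Cspg4 was called lower in both derivatives (-5.06 and -3.35, adjusted p = 3.45e-05 and 0.000157) and Pdgfra higher (0.63 and 0.85, adjusted p = 0.0427 and 0.016). Nes and Vim were called higher in G1C7 (adjusted p = 0.0155 and 0.0428) and not in G2C9 (0.0594 and 0.476), and Sox2 was not called in either (adjusted p = 0.252 and 0.101). The summed CPM of those 9 markers, most of it from Vim, lay between 2262 and 2322 in Gcontrol, 2787 and 2843 in G1C7, and 2504 and 2606 in G2C9. Summed CPM of 4 fibroblast markers overlapped between groups (3646 to 3857, 1946 to 4612 and 2523 to 5469), with Dcn and Col1a1 abundant in each group. The 5 neuronal markers summed to 1.22 to 1.44, 2.08 to 6.56 and 3.15 to 13.7 CPM, the 4 endothelial markers to 1.02 to 1.28, 1.37 to 1.68 and 3.74 to 4.71, and the 5 immune markers to 3.95 to 4.43, 2.21 to 4.57 and 2.47 to 4.04. Gad1, a neuronal marker, was called higher in both derivatives (adjusted p = 0.0399 and 0.00953), and Syt1 in neither. Most of the endothelial sum in G2C9 came from Cdh5, called higher there (2.28, adjusted p = 0.000738) and not in G1C7 (adjusted p = 0.105). Pecam1 and Kdr were called in neither derivative. Snap25, Cldn5 and Cd3e were at 0 in all libraries. The part of these marker levels in the WNT results was not tested. In bulk RNA, fewer cells of a type and less RNA per cell cannot be told apart.

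Of the 45 tested WNT pathway genes, 16 were called in G1C7 against Gcontrol, while 17.5% of all tested genes were called in that comparison. Of these 6 were higher, beside 8.77% of all tested genes, and 10 lower, beside 8.73%. In G2C9 against Gcontrol 11 were called (13.5% of all tested genes), 6 higher (6.25%) and 5 lower (7.22%). For the mean of both derivatives 16 were called (20%), 6 higher (9.32%) and 10 lower (10.6%). Between G1C7 and G2C9, 5 were called (3.36%), 3 higher (1.71%) and 2 lower (1.65%) in G1C7. The members' shares called were 35.6%, 24.4%, 35.6% and 11.1%. Their median log2 fold changes were 0.03, -0.27, -0.08 and 0.03, beside 0.02, 0.01, 0.01 and 0.01 (0.005) for all tested genes. Libraries did not overlap for 24, 23, 17 and 16 of the 45, beside 43%, 43.3%, 27.7% and 18.2% of all tested genes. The 2 comparisons with Gcontrol share their control libraries. With that in mind, 10 genes were called in the same direction in both derivatives (9.14% of all tested genes): Wnt5a, Fzd4, Apcdd1, Dkk2 and Axin2 were higher, and Wnt4, Wnt7a, Fzd6, Fzd7 and Lrp5 were lower. No member was called in opposite directions. Of the 45, 17 were called in at least 1 of the 4 comparisons and 28 in none. Wnt2 and Wnt7a passed the filter only through Gcontrol and Sfrp1 only through G1C7, the group where each was high. Their calls are in these counts but carry no weight for a direction. The counts depended on single libraries, and the share of all tested genes called moved with them. With any 1 of the 3 Gcontrol libraries left out, G1C7 had 10 calls, beside 7.32% to 8.03% of all tested genes. G2C9 had 6 without G2C9 replicate 1, Gcontrol replicate 1 or Gcontrol replicate 3 (7.32%, 5.44% and 5.82%). It had 7 without Gcontrol replicate 2 (6.33%) and 21 without G1C7 replicate 2 (25.6%). Between the derivatives 11 were called without G1C7 replicate 2 (8.01%) and 6 without G2C9 replicate 3 (3.65%). Without any other library 2 or 3 were called (1.14% to 1.76%).

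**Figure D1:**
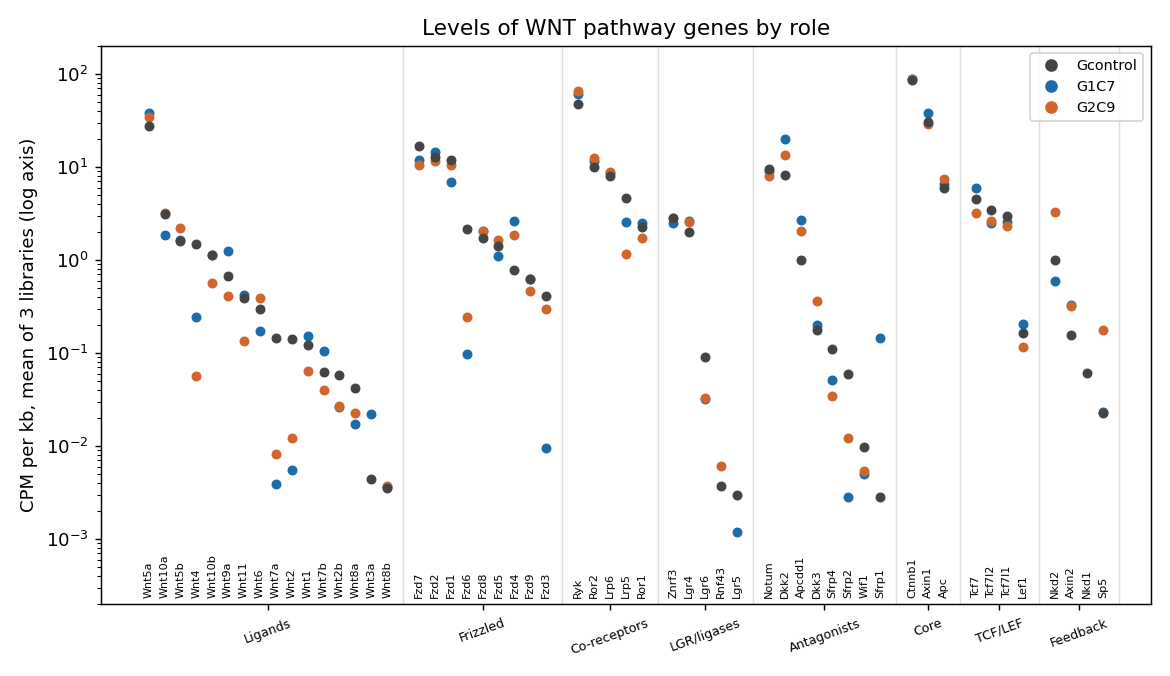
Mean CPM per kb of gene length (log axis) of the WNT pathway genes with reads in Gcontrol, grouped by role and ordered by the Gcontrol level, for Gcontrol, G1C7 and G2C9 (3 libraries each). A point is left out where a group had 0 reads. Ctnnb1 lies near 87 in all 3 groups, Wnt5a is the highest ligand, and Wnt4, Wnt7a, Wnt2, Fzd6 and Lrp5 lie below Gcontrol in both derivatives.

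Among the ligands, Wnt5a, a ligand best known for signalling without beta-catenin, was by far the most abundant: per kb of gene length its mean level in Gcontrol was 27.5 CPM, against 3.15 for Wnt10a, 1.59 for Wnt5b and 1.5 for Wnt4. Wnt5a stood at 215, 213 and 217 CPM in the 3 controls, at 287, 323 and 277 in G1C7, and at 262, 263 and 282 in G2C9. All 6 derivative libraries lay above all 3 controls. Wnt5a (chr14:28504750-28527448, plus strand) rose by 0.46 ± 0.08 in G1C7 (adjusted p = 0.0071), and the G2C9 rise was 0.32 ± 0.08 (adjusted p = 0.0365). The G2C9 call was lost without any Gcontrol or G2C9 library or without G1C7 replicate 1 (adjusted p from 0.0581 to 0.136). Wnt10a, a canonical ligand, gave 8.39, 7.35 and 7.55 CPM in Gcontrol, 3.37, 6.72 and 3.71 in G1C7, and 5.27, 6.2 and 12.1 in G2C9. It was lower than every control in all 3 G1C7 libraries and on both sides of the controls in G2C9, and it was not called (adjusted p = 0.188 and 0.985).

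Wnt4, a ligand with roles in kidney, gonad and neural development, was lower in both derivatives. Its promoter is printed here because Wnt4 changed in both and differed between them, and because the window is rich in CpG: RefSeq's window of GRCm38.p6 from chr4:137277385-137277684, plus strand, holds 51 CpG and 84.3% G or C. None of the TCF/LEF core motifs described further on is in this window. The window is placed by RefSeq's start site. The gene model used for the counts starts before that site, inside the window, at chr4:137277489.
Wnt4: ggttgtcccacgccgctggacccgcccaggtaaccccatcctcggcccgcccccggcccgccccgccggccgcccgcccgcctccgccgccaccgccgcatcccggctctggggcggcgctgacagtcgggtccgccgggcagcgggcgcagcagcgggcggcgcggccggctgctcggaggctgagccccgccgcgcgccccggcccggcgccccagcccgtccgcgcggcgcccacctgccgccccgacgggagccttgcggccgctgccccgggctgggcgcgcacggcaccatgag
Wnt4 (ENSMUSG00000036856.4, chr4:137277489-137299726, plus strand) stood at 5.79, 6.30 and 6.74 CPM in Gcontrol, 1.33, 0.765 and 0.95 in G1C7, and 0.436, 0.163 and 0.117 in G2C9. The 3 groups did not overlap, with G2C9 lowest. Wnt4 fell 6.18-fold in G1C7 (-2.63 ± 0.41, adjusted p = 0.00367). The fall in G2C9 was 26.0-fold (-4.70 ± 0.47, adjusted p = 0.000634). Both calls were kept without each library in turn. The difference between the derivatives was 2.08 ± 0.44 (adjusted p = 0.0418). Of the fits without 1 library, only those without G1C7 replicate 2 or without G2C9 replicate 1 kept this call (adjusted p from 0.0753 to 0.169 without any other).

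Wnt7a and Wnt2, canonical ligands active in brain vessels and in lung and placenta among other tissues, were scarce in Gcontrol and close to absent in the derivatives. Wnt7a had 24, 14 and 38 reads in Gcontrol, 2, 0 and 0 in G1C7, and 2, 0 and 2 in G2C9. Every derivative library was below every control. In read pairs, scaled to the libraries, Gcontrol exceeded G1C7 by 37.6 times (95% counting interval 6.35 to 1520; adjusted p = 0.00933) and G2C9 by 17.4 times (4.49 to 149; adjusted p = 0.0181). The G2C9 call was lost without Gcontrol replicate 1 or 3 or G2C9 replicate 1 or 2 (adjusted p from 0.0637 to 0.0896). Wnt2 had 18, 18 and 16 reads in Gcontrol, 2, 0 and 0 in G1C7, and 0, 4 and 0 in G2C9, again with no overlap. Gcontrol exceeded G1C7 by 25.7 times (4.22 to 1050; adjusted p = 0.0268) and G2C9 by 11.9 times (2.97 to 103; adjusted p = 0.0552, not called). The G1C7 call of Wnt2 was lost without any Gcontrol library or G1C7 replicate 3 (adjusted p from 0.0848 to 0.0939). These intervals cover counting error only. The remaining 8 tested ligands, Wnt1, Wnt2b, Wnt5b, Wnt6, Wnt7b, Wnt9a, Wnt10b and Wnt11, were not called. Over all 13 tested ligands, 1 was higher and 3 were lower in G1C7 and 1 was higher and 2 were lower in G2C9, with medians of -0.01 (-0.015) and -0.92. Wnt7a and Wnt2 are among the lower ones, and they passed the filter on low counts only through Gcontrol, where they were high. Their calls therefore carry no weight for a direction among the ligands. Of all tested genes, 8.77% were called higher and 8.73% lower in G1C7, and 6.25% and 7.22% in G2C9.

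Frizzled receptors are membrane-spanning proteins that bind WNTs through a cysteine-rich domain, and 5 of 9 tested members were called in G1C7 (1 higher, 4 lower) and 3 in G2C9 (1 higher, 2 lower). Of all tested genes, 17.5% were called in G1C7 (8.77% higher, 8.73% lower) and 13.5% in G2C9 (6.25% higher, 7.22% lower). Per kb, Fzd7, Fzd2 and Fzd1 were the most abundant in Gcontrol, at 16.7, 12.9 and 11.8 CPM. Fzd6, a receptor of the planar cell polarity branch at 2.15 CPM per kb in Gcontrol, fell in both derivatives. Fzd6 (ENSMUSG00000022297.15, chr15:39006034-39038188, plus strand) stood at 10.8, 10.3 and 10.0 CPM in Gcontrol, 0.299, 0.437 and 0.658 in G1C7, and 1.39, 0.714 and 1.45 in G2C9. The groups did not overlap, with G1C7 lowest. The fall was 22.2-fold in G1C7 (-4.47 ± 0.37, adjusted p = 0.000238). G2C9 gave an 8.74-fold fall (-3.13 ± 0.34, adjusted p = 0.00089), while the difference between derivatives was not called (-1.34 ± 0.34, adjusted p = 0.0799).

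Fzd3, which guides axons in the developing brain, changed in G1C7 but was not called in G2C9. Fzd3 (ENSMUSG00000007989.7, chr14:65192449-65262463, minus strand) stood at 4.99, 6.10 and 4.66 CPM in Gcontrol, 0.187, 0.0728 and 0.11 in G1C7, and 3.60, 4.74 and 3.12 in G2C9. G1C7 libraries held 10, 4 and 6 reads and lay far below the rest, whereas G2C9 overlapped Gcontrol. Fzd3 fell 41.9-fold in G1C7 (-5.39 ± 0.36, adjusted p = 8.36e-05) while the G2C9 difference was -0.46 ± 0.27 (adjusted p = 0.328). The difference between the derivatives was itself called, at -4.93 ± 0.35 (adjusted p = 0.000307), and these calls were kept without each library in turn.

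Fzd4, the receptor of norrin in retinal and brain vessels, was the only Frizzled gene called higher. Its promoter and that of Fzd7 are set side by side because these 2 receptors moved in opposite directions in both derivatives, and capitals mark the TCF/LEF core match, which only the Fzd7 window holds.
Fzd4: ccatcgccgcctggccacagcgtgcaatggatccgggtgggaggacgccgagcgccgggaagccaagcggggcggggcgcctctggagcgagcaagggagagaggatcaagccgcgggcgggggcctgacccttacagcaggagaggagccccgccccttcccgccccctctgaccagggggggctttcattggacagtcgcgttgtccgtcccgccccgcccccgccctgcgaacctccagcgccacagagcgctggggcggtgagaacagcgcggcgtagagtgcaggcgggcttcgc
Fzd7: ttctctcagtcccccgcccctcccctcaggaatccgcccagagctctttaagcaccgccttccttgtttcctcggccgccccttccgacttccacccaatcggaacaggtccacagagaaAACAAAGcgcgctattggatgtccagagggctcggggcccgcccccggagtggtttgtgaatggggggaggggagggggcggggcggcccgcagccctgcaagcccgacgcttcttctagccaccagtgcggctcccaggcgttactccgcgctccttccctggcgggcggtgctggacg
The Fzd4 window is chr7:89404116-89404415 and the Fzd7 window chr1:59481897-59482196, both plus strand and from RefSeq's GRCm38.p6, with 32 and 24 CpG. The Fzd7 match starts 130 bases before RefSeq's start site (position -130). The Fzd7 gene model used for the counts starts downstream of this window, at chr1:59482424. Fzd4 stood at 4.84, 5.51 and 5.43 CPM in Gcontrol, 14.1, 26.5 and 11.8 in G1C7, and 13.9, 11.5 and 12.3 in G2C9. All derivative libraries were above the controls, and the highest was G1C7 replicate 2. Fzd4 rose 3.32-fold in G1C7 (1.73 ± 0.28, adjusted p = 0.00445), and the G2C9 rise was 2.39-fold (1.26 ± 0.28, adjusted p = 0.0194). The G2C9 call was lost without any Gcontrol library or G2C9 replicate 1 (adjusted p from 0.0653 to 0.0881).

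Fzd7, a receptor often carried by stem and tumour cells, stood at 75.7, 73.4 and 77.3 CPM in Gcontrol, 53.3, 59.3 and 49.1 in G1C7, and 47.3, 49.7 and 45.6 in G2C9. No derivative library reached a control. It fell by 0.49 ± 0.09 on the log2 scale in G1C7 (adjusted p = 0.00755). The G2C9 difference was -0.67 ± 0.09 (adjusted p = 0.00222), and both calls were kept without each library in turn. Fzd1 stood at 50.8, 50.8 and 47.4 CPM in Gcontrol, 31.8, 24.9 and 30.5 in G1C7, and 42.0, 42.2 and 47.0 in G2C9. The groups did not overlap, but G2C9 lay close under the controls. Fzd1 fell in G1C7 (-0.77 ± 0.11, adjusted p = 0.00223), with no call for G2C9 (-0.18 ± 0.11, adjusted p = 0.317). The difference between derivatives was -0.59 ± 0.11 (adjusted p = 0.0226), and it was not called without any Gcontrol library, G1C7 replicate 3 or G2C9 replicate 1 or 2 (adjusted p from 0.0585 to 0.0788). Fzd2 stood at 48.4, 46.8 and 46.6 CPM in Gcontrol, 48.8, 56.2 and 52.5 in G1C7, and 42.5, 40.7 and 43.5 in G2C9, above the controls in G1C7 and below them in G2C9. It was not called (0.15 and -0.16, adjusted p = 0.239 and 0.238). Fzd5, Fzd8 and Fzd9 were not called either.

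**Figure D2:**
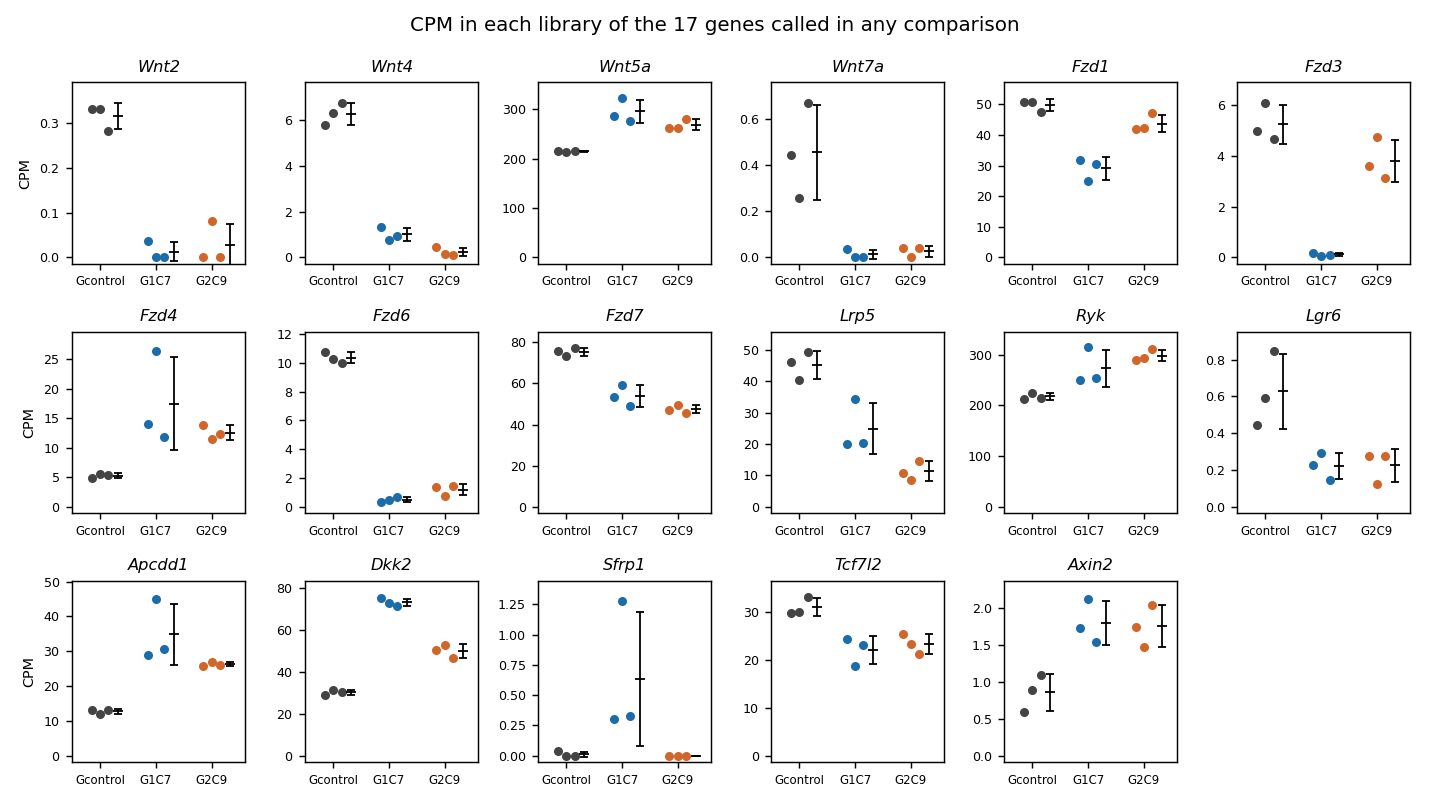
CPM in each library (points) of the 17 WNT pathway genes called in any of the 4 comparisons, with group mean and SD (bars, n = 3 libraries a group) on linear axes. Fzd3 is near 0 only in G1C7, Fzd6 and Wnt4 are low in both derivatives, and the Apcdd1 and Dkk2 libraries of both derivatives lie above the controls.

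Genes near the members were read in the same fit to see whether they moved alike. Around Fzd6, 10 tested genes lay within 1 Mb; 4 were called lower in G1C7 and 3 in G2C9, none was called higher, and the medians were -0.42 and -0.20. In those 2 comparisons 8.73% and 7.22% of all tested genes were called lower. Its nearest neighbour, Baalc, gave -1.62 in G1C7 (adjusted p = 0.0122), and its G2C9 value was -2.45 (adjusted p = 0.00291). Around Fzd3, 16 tested genes had medians of 0.12 and 0.13, and the nearest, Extl3, differed by 0.11 and 0.19 (adjusted p = 0.586 and 0.366). Of the neighbours of Fzd3, 2 were called lower and 2 higher in G1C7, and 1 lower and 2 higher in G2C9. They included Scara5 (-2.88 and -3.33, adjusted p = 0.00432 and 0.00302) and Scara3 (1.12 and 1.37, adjusted p = 0.0052 and 0.00254), both named after their values were seen. Wnt4 had 17 tested neighbours with medians of -0.14 and -0.13, of which 3 and 2 were called lower and none higher, and Cdc42, the nearest, differed by -0.13 and -0.12 (adjusted p = 0.355 and 0.439). The 10 neighbours of Dkk2, which was higher, had medians of -0.49 and -0.12, and 6 of them were called lower in G1C7 and none higher, against 1 lower and 1 higher in G2C9.

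**Figure D3:**
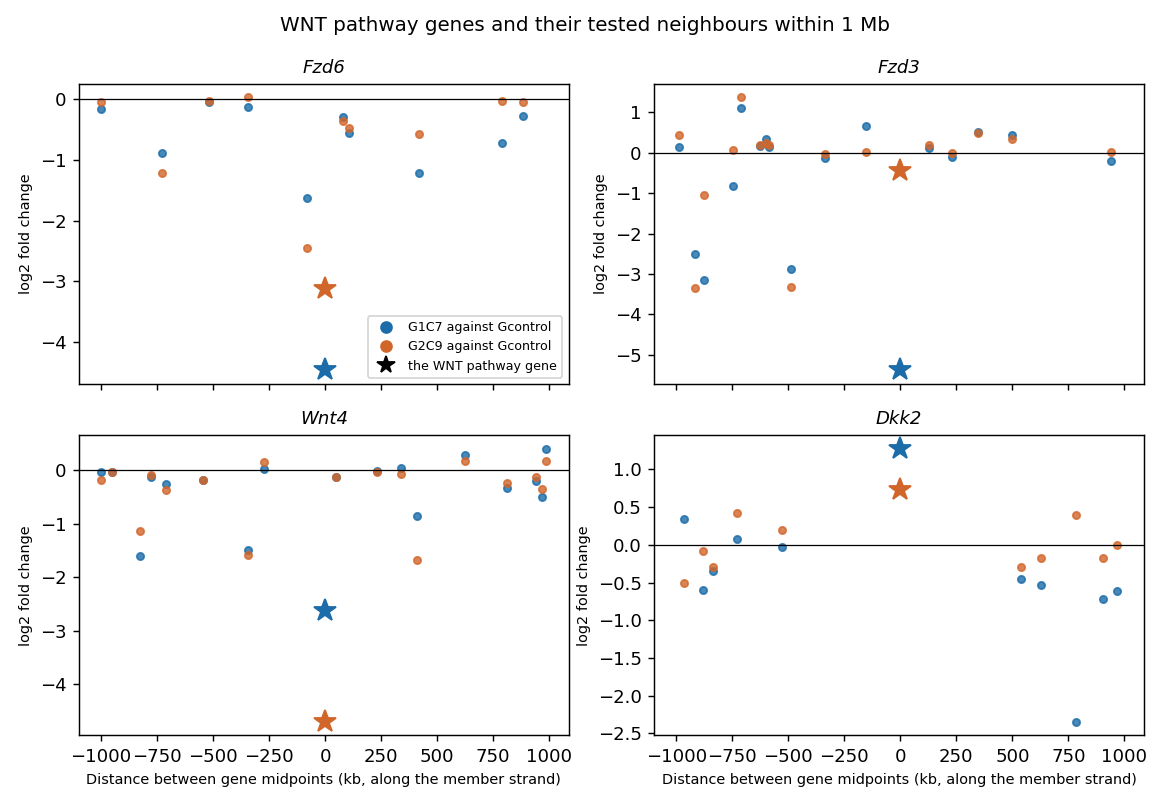
Log2 fold change against Gcontrol of Fzd6, Fzd3, Wnt4 and Dkk2 (stars at 0) and of the tested genes within 1 Mb (points), by distance between gene midpoints in kb along the strand of the named gene, for G1C7 and G2C9. Fzd6 has a low neighbour, Baalc, at -1.62 and -2.45, whereas Dkk2 is above 0 while most neighbours in G1C7 are below it.

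Lrp5 and Lrp6 encode the co-receptors of the canonical branch, and Lrp5 was called lower in both derivatives and Lrp6 in neither. Lrp5 (ENSMUSG00000024913.16, chr19:3584828-3686564, minus strand) stood at 46.1, 40.5 and 49.3 CPM in Gcontrol, 19.9, 34.3 and 20.4 in G1C7, and 10.8, 8.59 and 14.6 in G2C9. The 3 groups did not overlap, and G2C9 was lowest. Lrp5 fell 3.98-fold in G2C9 (-1.99 ± 0.26, adjusted p = 0.00197), kept without each library in turn, and 1.82-fold in G1C7 (-0.86 ± 0.25, adjusted p = 0.0463). The G1C7 call was lost without any Gcontrol library, G1C7 replicate 1 or 3 or G2C9 replicate 1 (adjusted p from 0.0677 to 0.141). Lrp6 differed by 0.09 ± 0.10 and 0.12 ± 0.10 (adjusted p = 0.579 and 0.516), with overlapping libraries. Whether the 2 genes' changes differ from each other was not tested.

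Ryk, a WNT receptor with an inactive kinase domain, was the most abundant receptor gene per kb at 48.1 CPM in Gcontrol. Ryk stood at 213, 225 and 215 CPM in Gcontrol, 250, 315 and 254 in G1C7, and 290, 295 and 311 in G2C9. Each derivative library was above each control. It rose in G2C9 (0.45 ± 0.10, adjusted p = 0.0208), while G1C7 gave 0.33 ± 0.10 (adjusted p = 0.0602), and the G2C9 call was lost without any Gcontrol library or G2C9 replicate 1 or 2 (adjusted p from 0.0551 to 0.0961). Ror2, a tyrosine kinase receptor of WNT5A, stood at 42.3, 41.5 and 43.2 CPM in Gcontrol, 47.5, 54.5 and 46.2 in G1C7, and 50.9, 49.4 and 59.4 in G2C9, without overlap but not called (0.22 and 0.33, adjusted p = 0.171 and 0.0653). Ror1 was not called.

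LGR4 to LGR6 bind R-spondins, and ZNRF3 and RNF43 remove Frizzled receptors from the cell surface. Lgr4 stood at 12.3, 12.1 and 10.6 CPM in Gcontrol, 13.5, 19.2 and 13.6 in G1C7, and 15.7, 14.4 and 15.5 in G2C9. Both derivatives lay above the controls, with no call (0.40 and 0.38, adjusted p = 0.113 and 0.151). Lgr6, at low counts, had 24, 32 and 48 reads in Gcontrol, 12, 16 and 8 in G1C7, and 14, 6 and 14 in G2C9, with no overlap. Lgr6 fell in G1C7 (-1.50 ± 0.44, adjusted p = 0.0478), whereas the G2C9 difference of -1.47 ± 0.44 was not called (adjusted p = 0.0603). The G1C7 call was lost without any Gcontrol library, G1C7 replicate 1 or 3 or G2C9 replicate 1 (adjusted p from 0.0691 to 0.184). Znrf3 stood at 20.4, 21.2 and 24.9 CPM in Gcontrol, 24.6, 13.3 and 21.4 in G1C7, and 26.5, 24.3 and 16.9 in G2C9, where the lowest library of each derivative was the one away from its group. Znrf3 was not called (adjusted p = 0.692 and 0.963).

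Among the antagonists, most DKK proteins act on LRP5 and LRP6, and SFRP and WIF1 proteins bind the ligands. APCDD1 blocks signalling at the membrane, and NOTUM removes the lipid from WNTs. Of 6 tested antagonists 3 were called in G1C7 and 2 in G2C9, all higher, beside 8.77% and 6.25% of all tested genes called higher. Those in G1C7 include Sfrp1, which passed the filter only through G1C7. Sfrp2, untested and named after its values were seen, went the other way, with fewer reads in every derivative library than in any control. Dkk2 was called in each of the 4 comparisons. Its promoter is shown because Dkk2 was higher in every derivative library and because, unlike those of Wnt4, Fzd4 and Fzd7, it holds few CpG, at 11 with 57.7% G or C (chr3:132085042-132085341, plus strand, RefSeq's GRCm38.p6). None of the core motifs is in it.
Dkk2: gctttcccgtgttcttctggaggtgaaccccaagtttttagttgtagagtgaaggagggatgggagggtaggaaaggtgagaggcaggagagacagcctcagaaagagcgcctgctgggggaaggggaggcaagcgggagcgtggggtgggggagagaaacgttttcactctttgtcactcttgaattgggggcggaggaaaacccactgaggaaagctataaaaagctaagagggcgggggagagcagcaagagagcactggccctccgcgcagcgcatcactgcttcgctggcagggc
Dkk2 (ENSMUSG00000028031.6) stood at 29.1, 31.2 and 30.4 CPM in Gcontrol, 75.1, 73.1 and 71.3 in G1C7, and 50.7, 52.8 and 46.5 in G2C9. The groups did not overlap, with G1C7 highest and G2C9 between. Dkk2 rose 2.42-fold in G1C7 (1.28 ± 0.08, adjusted p = 7.7e-05), and the rise in G2C9 was 1.65-fold (0.73 ± 0.08, adjusted p = 0.000931). The difference between the derivatives was 0.55 ± 0.08 (adjusted p = 0.0085). These calls were kept without each library in turn.

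Apcdd1 (ENSMUSG00000071847.13), also a target of the pathway in other tissues, stood at 13.1, 11.9 and 13.2 CPM in Gcontrol, 29.0, 44.9 and 30.5 in G1C7, and 25.8, 27.0 and 26.0 in G2C9. Every derivative library was above every control. Apcdd1 rose 2.74-fold in G1C7 (1.45 ± 0.16, adjusted p = 0.000947), and the G2C9 rise was 2.06-fold (1.05 ± 0.16, adjusted p = 0.00415), kept without each library in turn. Sfrp1 had 2, 0 and 0 reads in Gcontrol, 16, 70 and 18 in G1C7, and 0, 0 and 0 in G2C9. G1C7 was the only group with more than 2 reads in a library, and G1C7 replicate 2 held most of them. G1C7 exceeded Gcontrol by 52.6 times in read pairs (95% counting interval 9.03 to 2120; adjusted p = 0.0214), and it was at least 16.0-fold higher than G2C9 against a floor of 3 read pairs over the group (adjusted p = 0.0443). The first call was lost without any Gcontrol library (adjusted p from 0.0682 to 0.0906). Of the fits without 1 library, only that without G1C7 replicate 2 kept the second call, at adjusted p of up to 0.117 otherwise. Notum, the most abundant antagonist per kb in Gcontrol at 9.57 CPM, stood at 22.1, 24.1 and 22.9 CPM there, 26.5, 13 and 25.6 in G1C7, and 19.5, 19.4 and 18.4 in G2C9. It was below the controls throughout G2C9 and only in replicate 2 of G1C7, and was not called (adjusted p = 0.837 and 0.509). Dkk3 and Sfrp4 were not called. In the fit without the 2 libraries away from their groups, Sfrp4 was called lower in both (-3.26 and -4.37, adjusted p = 0.00196 and 0.000754). That fit called 54.3% and 53% of all tested genes in G1C7 and G2C9.

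**Figure D4:**
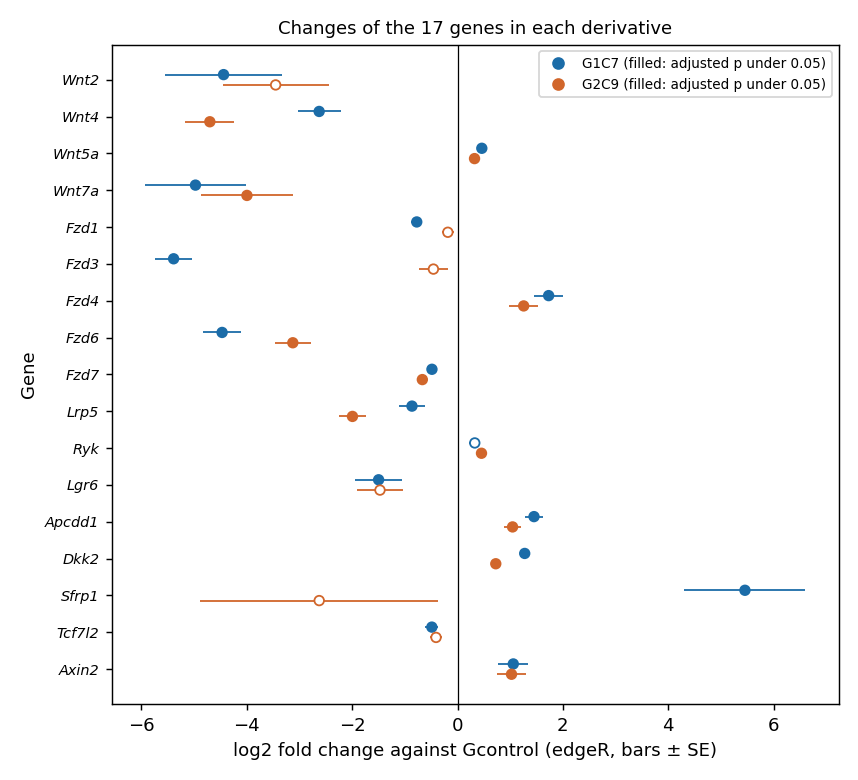
Log2 fold change against Gcontrol from the edgeR fit, with SE bars, of the 17 called WNT pathway genes in G1C7 and G2C9; filled points are called at adjusted p under 0.05. Wnt4, Wnt7a, Fzd6, Fzd7 and Lrp5 lie left of 0 with both points filled, and Wnt5a, Fzd4, Apcdd1, Dkk2 and Axin2 right of 0. Sfrp1, Wnt2 and Wnt7a have few reads in a group, so their fitted positions depend on the tool's small added count.

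The cytoplasmic core genes Ctnnb1, Axin1 and Apc gave no call in any of the 4 comparisons by edgeR (0 of 3, and 0 at an unadjusted p under 0.05), and none by DESeq2 or limma-voom. Of all tested genes, edgeR called 17.5%, 13.5%, 20% and 3.36% in these comparisons. Ctnnb1, the highest member per kb at 86.6 CPM in Gcontrol, stood at 451, 451 and 447 CPM there, 509, 377 and 495 in G1C7, and 470, 462 and 441 in G2C9. The log2 differences were 0.03 ± 0.12 in both derivatives (adjusted p = 0.867 and 0.918). Axin1 stood at 114, 118 and 120 CPM in Gcontrol, 162, 108 and 161 in G1C7, and 121, 120 and 91.1 in G2C9, with overlap in both (0.29 and -0.08, adjusted p = 0.277 and 0.816). In both genes G1C7 replicate 2 was the lowest of its group. With the 2 libraries away from their groups left out, 54.3% of all tested genes were called in G1C7 and 53% in G2C9. In that fit both genes were called higher in G1C7 (Ctnnb1 0.16 and Axin1 0.465, adjusted p = 0.00105 and 3.67e-08). Apc was called higher in both derivatives (0.339 and 0.495, adjusted p = 0.0052 and 0.000487). The 2 libraries were picked by their distance in these same data, and leaving them out narrows the spread behind these p-values. Axin1 lies on chromosome 17, where 53 tested neighbours within 1 Mb had a median of 0.52 in G1C7, where 25 were called higher and 2 lower, beside 8.77% and 8.73% of all tested genes. In G2C9 their median was 0.14, with 6 called higher and 2 lower.

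Tcf7l2 was the only TCF/LEF gene called in G1C7. It stood at 29.7, 30.0 and 33.0 CPM in Gcontrol, 24.3, 18.7 and 23.1 in G1C7, and 25.4, 23.2 and 21.2 in G2C9. No derivative library reached a control. Tcf7l2 fell in G1C7 (-0.49 ± 0.12, adjusted p = 0.0274), and the G2C9 difference was -0.41 ± 0.12 (adjusted p = 0.0606). The G1C7 call was lost without any Gcontrol library, G1C7 replicate 3 or G2C9 replicate 2 (adjusted p from 0.0510 to 0.112). Tcf7, highest of the 4 per kb at 4.56 CPM in Gcontrol, stood at 14, 13.2 and 14 CPM there, 14.4, 25.0 and 13.7 in G1C7, and 7.53, 8.10 and 13.4 in G2C9. The libraries away from their groups were the highest of their groups, and Tcf7 was not called (adjusted p = 0.416 and 0.291). Lef1 and Tcf7l1 were not called. In the fit without those libraries, Tcf7 was called lower in G2C9 (-0.815, adjusted p = 2.67e-07) and not called in G1C7 (0.034, adjusted p = 0.74). That fit called 53% and 54.3% of all tested genes in G2C9 and G1C7.

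The feedback targets Axin2, Nkd1, Nkd2 and Sp5 are switched on by beta-catenin in many tissues, Axin2 being the most general readout. The Axin2 promoter is shown for that reason (chr11:108920099-108920398, plus strand, RefSeq's GRCm38.p6, 31 CpG); none of the core motifs is in this window.
Axin2: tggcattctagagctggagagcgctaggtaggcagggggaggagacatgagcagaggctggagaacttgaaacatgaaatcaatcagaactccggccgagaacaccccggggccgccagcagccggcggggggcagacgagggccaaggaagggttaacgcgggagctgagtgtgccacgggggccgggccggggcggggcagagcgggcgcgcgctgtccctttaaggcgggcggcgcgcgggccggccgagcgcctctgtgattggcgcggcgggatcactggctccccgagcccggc
Axin2 was scarce, at 0.592, 0.887 and 1.09 CPM in Gcontrol, 1.72, 2.11 and 1.53 in G1C7, and 1.74, 1.47 and 2.03 in G2C9. Each derivative library lay above each control. It was called higher in both, by 2.08-fold in G1C7 (1.06 ± 0.28, adjusted p = 0.0339). The G2C9 rise was 2.03-fold (1.02 ± 0.28, adjusted p = 0.0454). In G1C7 the call was lost without any Gcontrol library, G1C7 replicate 1 or 3 or G2C9 replicate 1 (adjusted p from 0.0512 to 0.122). The G2C9 call was lost without any library but G1C7 replicate 2 (adjusted p from 0.0616 to 0.158).

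The other feedback targets were scarce or varied between libraries. Nkd1 did not pass the filter and is described because its values were seen: it had 24, 10 and 12 reads in Gcontrol and 0 in all 6 derivative libraries, at least 7.58-fold lower in G1C7 and 7.01-fold lower in G2C9 against the floor of 3 read pairs over a group. Nkd2, an inhibitor acting through Dishevelled, stood at 4.75, 4.38 and 5.5 CPM in Gcontrol, 0.561, 7.54 and 0.548 in G1C7, and 4.71, 4.49 and 38.6 in G2C9. The highest library of each derivative was the one away from its group. Nkd2 was not called in any comparison (-0.76 and 1.71, adjusted p = 0.692 and 0.377). With those 2 libraries left out, Nkd2 was called lower in G1C7, at -3.13 ± 0.19 (adjusted p = 2.08e-10), and differed by -0.08 ± 0.14 in G2C9 (adjusted p = 0.643). That fit called 54.3% and 53% of all tested genes in the 2 derivatives. Sp5, also outside the filter and named after its values were seen, had 0, 2 and 6 reads in Gcontrol, 0, 6 and 2 in G1C7, and 6, 12 and 38 in G2C9.

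Other ligands and inhibitors were also high in those 2 libraries. In G1C7 replicate 2, 10 of the 45 tested members were at least 2-fold above the mean of the other G1C7 libraries, or 22.2%, beside 11.8% of all tested genes, and none was 2-fold below (5.17% of all genes). In G2C9 replicate 3 there were 9, or 20%, beside 8.32%, and again none below (1.93%). Relative to the rest of its own group (with 0.1 CPM added), Nkd2 was 11.7 times higher in the first and 8.24 times in the second, Wnt6 7.19 and 8.36 times, and Wnt11 7.28 and 2.07 times. Sfrp4 gave 4.44 and 4.07 times, Dkk3 3.19 and 3.72, and Wnt9a 3.39 and 2.45. These 6 genes were named after their values were seen. Without the 2 libraries the fit called 33, 32, 31 and 20 of 46 tested members in the 4 comparisons, beside 54.3%, 53%, 58.5% and 27.3% of all tested genes, and all of the calls listed above were kept. The p-values of that fit rest on a spread narrowed by leaving out libraries picked from these same data. Some members called in neither derivative before were then called in a single derivative. In G1C7 these were Axin1 and Ctnnb1, higher, and Fzd5, Nkd2 and Wnt5b, lower. In G2C9 these were Fzd8, higher, and Fzd2, Tcf7, Wnt7b, Wnt9a and Wnt10b, lower. Other members called in neither before were then called in both. Lower in both were Sfrp4, Tcf7l1, Wnt6, Wnt10a and Wnt11, higher in both were Apc, Lgr4 and Ror2, and Notum and Ror1 were higher in G1C7 and lower in G2C9. Nkd1, untested before, was called lower in both. Examples are Wnt11 (-1.70 and -2.06, adjusted p = 5.8e-05 and 1.47e-05), Wnt10a (-1.13 and -0.44, adjusted p = 3.48e-07 and 0.0037), Ror2 (0.15 and 0.24, adjusted p = 0.0195 and 0.000547) and Lgr4 (0.215 and 0.367, adjusted p = 0.0396 and 0.00131). Of the 4 fibroblast markers, Col1a1 and Dcn were high in the same libraries. Pdgfrb was not, at 216 CPM in G1C7 replicate 2 against 324 and 305, and 335 in G2C9 replicate 3 against 328 and 316. Lum had 0 reads in the first against 0 and 4, and 14 in the second against 6 and 4. Col1a1 stood at 3522 CPM in G1C7 replicate 2 against 1424 and 1329, and at 2560 in G2C9 replicate 3 against 1345 and 1282. Dcn stood at 874 against 296 and 312, and at 2573 against 902 and 925. Sox2 was low there, at 21.3 CPM against 58.6 and 53.8, and at 23.2 against 40.1 and 40.8. The other glial and progenitor markers did not all go that way. Pdgfra was high there, at 491 CPM against 332 and 331, and at 541 against 414 and 390. Nes gave 149 against 158 and 150, and 90.1 against 101 and 96.9. Vim gave 2124 against 2283 and 2307, and 1844 against 1951 and 2075. Cspg4 and Gfap were lowest of their group in the first library and highest in the second. The part of these markers in the WNT values of the 2 libraries was not tested, and the labels say nothing of why these libraries lie away from the rest.

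**Figure D5:**
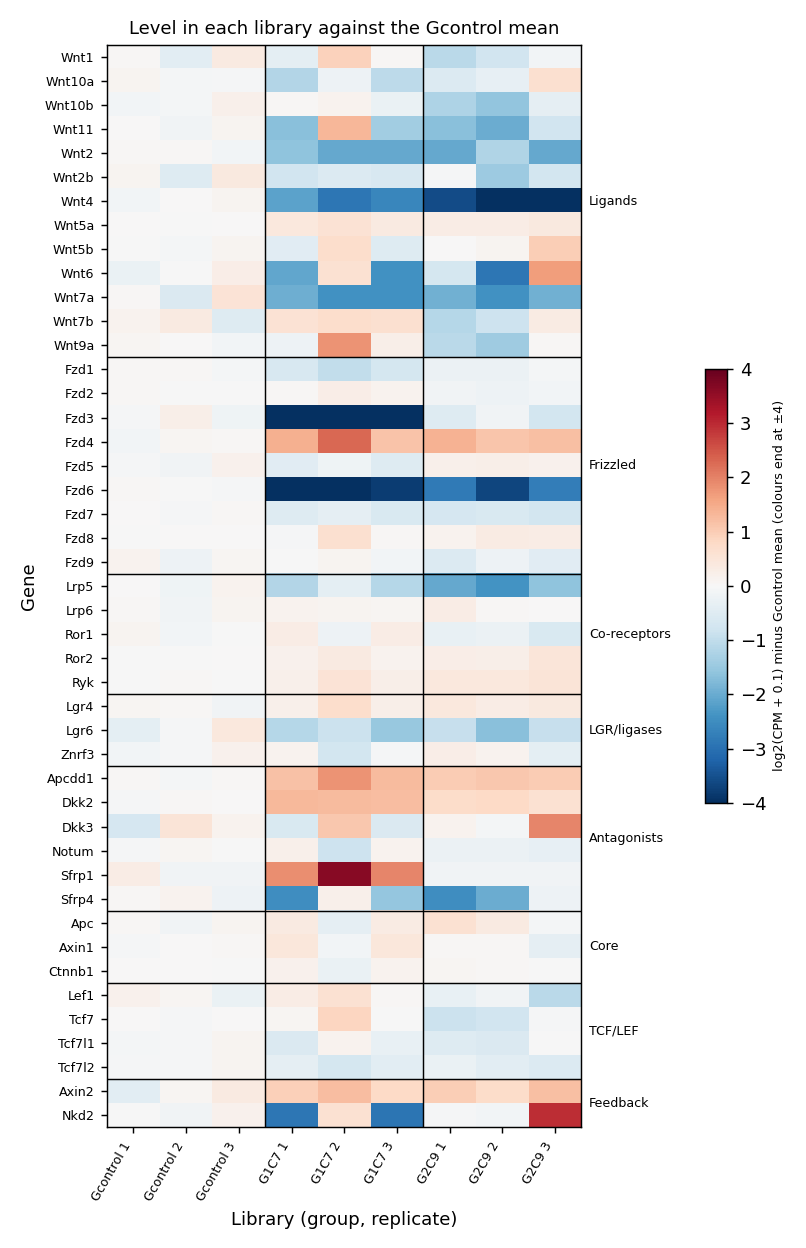
Level of each of the 45 tested WNT pathway genes in each library, as log2(CPM + 0.1) minus the Gcontrol mean, grouped by role; colours end at 4 in either direction. Blue cells show Wnt4, Fzd6 and Lrp5 low in both derivatives and Fzd3 in G1C7 only, and the columns of G1C7 replicate 2 and G2C9 replicate 3 are redder than their neighbours for Wnt6, Wnt9a, Wnt11, Dkk3 and Nkd2.

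Of the 16 members outside the test, Dkk1, Dkk4, Fzd10, Wnt3 and Wnt9b had 0 reads in all 9 libraries. Nkd1 and Sp5 are described above. Wnt8a had 12, 0 and 0 reads in Gcontrol, 0, 1 and 4 in G1C7, and 6, 0 and 0 in G2C9. Sfrp2 had 5, 11 and 5 reads in Gcontrol, 0, 1 and 0 in G1C7, and 2, 0 and 2 in G2C9, so its reads were higher in every control than in any derivative library. Lgr5, Rnf43, Sfrp5, Wif1, Wnt3a, Wnt8b and Wnt16 had no more than 10 reads in any group.

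Of 86 further genes in 6 lists by function, 71 were tested, and 6 were called higher and 3 lower in G1C7, beside 8.77% and 8.73% of all tested genes. In G2C9 9 were higher and 6 lower (6.25% and 7.22% of all tested genes), for the mean 7 and 7 (9.32% and 10.6%), and between the derivatives 1 and 2 (1.71% and 1.65%). Medians over the 71 were 0.11, 0.05, 0.08 and 0.05. Among 4 tested genes of ligand secretion and agonists, Wls, the carrier that takes WNTs to the cell surface, rose in G2C9 from 119 ± 4.6 to 207 ± 11 CPM (SD, n = 3 each; 0.79 ± 0.08, edgeR adjusted p = 0.000611). Wls stood at 113 ± 4.8 CPM in G1C7, was not called there, and differed between the derivatives by -0.88 ± 0.08 (adjusted p = 0.000788). Rspo3, an R-spondin agonist, was called higher in G2C9 at low levels (2.56 ± 0.64, adjusted p = 0.0322). No gene of this list was called in G1C7 (0 at an unadjusted p under 0.05, and 0 by DESeq2 and by limma-voom). The 5 tested genes of other antagonists and membrane regulators gave 0 calls in the 4 comparisons; an unadjusted p under 0.05 was reached by 0, 1, 1 and 0 of them, DESeq2 called 0, 1, 0 and 0, and limma-voom 0 in each. Gpc4, a glypican and the most abundant of them per kb, differed by 0.23 ± 0.17 in G1C7 and 0.22 ± 0.17 in G2C9 (adjusted p = 0.406 and 0.475).

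Among 18 Dishevelled and destruction complex genes, Csnk1d, a casein kinase, fell in both derivatives (-0.41 ± 0.09 and -0.42 ± 0.09, adjusted p = 0.0146 and 0.0156). Ppp2r5d, a phosphatase subunit, rose in G1C7 (0.57 ± 0.13, adjusted p = 0.0206). In G2C9 Dvl2 fell (-0.32 ± 0.08, adjusted p = 0.0279) and Dact1 rose (1.34 ± 0.37, adjusted p = 0.0445). Of 15 nuclear cofactors, Tle4, a corepressor of TCF factors, rose from 3.12 ± 0.33 CPM to 8.24 ± 1.3 in G1C7 (1.40 ± 0.18, adjusted p = 0.00173) and to 7.58 ± 1.0 in G2C9 (1.28 ± 0.18, adjusted p = 0.003). Pygo2 fell in G1C7 (-0.33 ± 0.10, adjusted p = 0.0494), and Ctnnbip1, an inhibitor of beta-catenin binding, fell in G2C9 (-0.68 ± 0.14, adjusted p = 0.0135).

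Of 14 planar cell polarity genes, Vangl1, a core membrane protein of that branch, fell from 51.4 ± 1.7 CPM to 29.7 ± 1.1 in G1C7 (-0.79 ± 0.08, adjusted p = 0.000485) and to 37.8 ± 1.7 in G2C9 (-0.44 ± 0.08, adjusted p = 0.00722). Vangl1 was lower in G1C7 than in G2C9 (-0.35 ± 0.08, adjusted p = 0.0488), and Celsr1 was called lower for the mean of both derivatives only (-2.63 ± 0.65, adjusted p = 0.0228). Rhoa, a small GTPase, rose in G1C7 (0.40 ± 0.08, adjusted p = 0.0143). Rhou, a WNT-responsive GTPase, fell in G2C9 (-0.76 ± 0.10, adjusted p = 0.00239) and differed between derivatives by 0.94 ± 0.10 (adjusted p = 0.00237). Among 15 tested broad targets, which other pathways also drive, Jun rose in both (1.01 ± 0.13 and 0.60 ± 0.13, adjusted p = 0.00147 and 0.0151), as did Bambi, a decoy receptor of BMP and TGF-beta (0.45 ± 0.12 and 0.82 ± 0.12, adjusted p = 0.0359 and 0.00362). Tnfrsf19 was called higher in G2C9 (1.74 ± 0.47, adjusted p = 0.0428), and Myc lower there (-0.33 ± 0.09, adjusted p = 0.0499). Birc5 was called lower for the mean of both derivatives (-0.50 ± 0.13, adjusted p = 0.0294), as was Myc (-0.28 ± 0.08, adjusted p = 0.0361).

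RefSeq's promoter table (GRCm38.p6, from 250 bases before to 50 after each start site) held 41 of the 61 members, in 51 windows of 300 bases. The TCF/LEF core was searched on both strands in 4 forms, namely CTTTGAA together with CTTTGAT, then CTTTGTA together with CTTTGTT. A match stood in 8 of the 51 windows, or 15.7%, beside 16.9% of all 32851 promoter windows. The members with a match were Fzd7, Wnt11, Wnt5b, Lef1, Tcf7l2 and Sp5 and, with no reads here, Dkk1 and Wnt3. Windows with at least 50% G or C and a CpG ratio of 0.6 or more made up 66.7% of the members' windows and 33.5% of all. A match is a run of letters and not a site, and these shares carry no test. RefSeq's start sites can differ from the starts of the gene models counted, as for Wnt4 and Fzd7.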

How the data were processed

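NP53 Gcontrol, G1C7 and G2C9 (3 poly(A) libraries each) were measured. The authors deposited raw read counts by gene, from featureCounts with GENCODE vM25 per the file headers; the submitters' processing notes name FastQC 0.11.8, STAR 2.6.1c, featureCounts 1.6.0 and GRCm38. No header held an option for pairs, strand or overlap, so mates count separately, and a gene cannot be told from an antisense partner. Symbols came from GENCODE vM21 (55141 of 55401 IDs).

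CPM used TMM factors (0.978 to 1.03). filterByExpr kept 15659 genes, and edgeR 4.0.16 (R 4.3.3) fitted all libraries with 6 residual degrees of freedom and a biological coefficient of variation of 0.248. The procedure was tested on simulated data. Alternatives were RLE factors, DESeq2 1.42.0, limma-voom (limma 3.58.1), other filters, fewer groups, a replicate block, each library left out, and both libraries away from their groups left out. The rule uses symbols only, but the members and lists were chosen with earlier results of these data known, so their shares called are not those of a blind choice. Values by library are given for called members, the 2 most abundant per role, and members silent in a group but at 0.3 CPM or more in another; from each list, up to 2 called genes per direction and comparison with the largest change, or the most abundant.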

Additional observations from a re-analysis of the deposited data

Results flagged for a closer look

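For 5 members the effect against Gcontrol differed between the derivatives, by the edgeR contrast of G1C7 against G2C9. The log2 differences (G1C7 minus G2C9) were 0.55 for Dkk2, -0.59 for Fzd1, -4.93 for Fzd3, 8.08 for Sfrp1 and 2.08 for Wnt4 (2.075). Dkk2 rose more in G1C7, Fzd3 and Fzd1 were called lower only in G1C7, and Wnt4 fell further in G2C9. The Sfrp1 value is a fitted one against 0 reads in G2C9 and is no bound. Fzd3 and Dkk2 kept the call without each library in turn. Fzd1 was not called in 6 of 9 such fits (adjusted p of up to 0.0788 without G2C9 replicate 2), Wnt4 in 7 (up to 0.169 without G2C9 replicate 2) and Sfrp1 in 8 (up to 0.117 without G2C9 replicate 2).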

How the results depend on the processing

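The number of members called in G1C7, G2C9, the mean and between the derivatives was 16, 11, 16 and 5, and stayed within 1.5 times of that under RLE factors and both other filters. The shares of all tested genes were 17.5%, 13.5%, 20% and 3.36%, and 17.4%, 13.5%, 19.7% and 3.4% with RLE factors. They were 7.25%, 5.51%, 8.61% and 1.4% without a filter (56 members tested). At the stricter filter (35 members tested) they were 21%, 16.6%, 23.3% and 4.29%. DESeq2, with 56 members tested, called 17 in G2C9 and 12 between the derivatives, beside 15% and 6.75% of all tested genes. With the fit limited to the groups compared (41 members tested), the count between the derivatives was 1, beside 0.541%. Without G1C7 replicate 2 and G2C9 replicate 3 the counts were 33, 32, 31 and 20, beside 54.3%, 53%, 58.5% and 27.3%. Whether the replicate numbers pair the libraries cannot be decided here. In deviations from the group mean, same-numbered G1C7 and G2C9 libraries correlated at 0.409, -0.511 and -0.557. These values follow the 2 libraries away from their groups, which have different numbers and correlated at 0.677. Same-numbered derivative and Gcontrol libraries correlated at -0.023 to 0.047. With a replicate block the counts were 10, 8, 14 and 1, beside 9.78%, 7.11%, 12.6% and 1.05% of all tested genes. Leaving out 1 library at a time gave ranges of 10 to 22, 6 to 21, 11 to 20 and 2 to 11, while the share of all tested genes called ranged from 7.32% to 25.8%, 5.44% to 25.6%, 8.17% to 31.1% and 1.14% to 8.01%. Where a group was left with 2 libraries the spread was pooled over groups. Of 75 results of named members 48 were called, 27 of them under every alternative run, and none of the 48 changed sign; the cause of lost calls was not tested. Sign changes, all in results not called in the fit reported, were as follows. Wnt10a in G2C9 became -0.0751 with limma-voom and -0.0458 with the block. Without both libraries Wnt10a in G2C9 became -0.436, Notum and Znrf3 in G1C7 0.182 and 0.0571, and Axin1 and Nkd2 in G2C9 0.0437 and -0.0832. Leaving out 1 library at a time, Wnt10a in G2C9 ranged from -0.431 to 0.233, Axin1 from -0.152 to 0.0483, Nkd2 from -0.0777 to 2.16 and Znrf3 from -0.106 to 0.204. In G1C7, Ctnnb1 ranged from -0.0446 to 0.164, Notum from -0.253 to 0.184 and Znrf3 from -0.349 to 0.0601. Depth limits Wnt2, Wnt7a, Sfrp1 and Nkd1, which have few read pairs in a group.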
